A study of Mus musculus with 9 samples.

Results

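Amino acid catabolism is described here through 38 genes of mouse liver: 4 of aromatic amino acid breakdown, 7 of the tryptophan-kynurenine route, 4 of histidine breakdown, 9 of branched-chain amino acid breakdown, 7 transaminases, and 7 of glutamate, glutamine, serine, proline and lysine handling. The members are defined by gene name in the array annotation, and the list was drawn up with earlier results of these data known. The arrays carried 53 probes for them among 41174, all 38 genes passed the filter on dim probes, and they were compared among 17633 genes tested. Of the 38 probes used, the brightest of each gene, only that of Acmsd was not well above background on every array.

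Livers came from male C57bl/6J mice aged 16 weeks, with no engineered allele or other agent named for any group. The chow group (3 livers) ate control chow, the HFD group (3 livers) ate D12492, a high-fat diet with 60 kcal% fat, and the HFD+APS group (3 livers) ate the same high-fat diet mixed with 40 g of Astragalus polysaccharides (APS, carbohydrates of a legume root) per kg, each for 12 weeks. The title places the study in the prevention and treatment of non-alcoholic fatty liver. The 9 livers were picked from 24 mice by histological staining and triglyceride measurements, so p-values measure the spread among livers selected on the disease itself.

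The liver is the main site where surplus amino acids lose their nitrogen and their carbon skeletons enter glucose, ketone or lipid metabolism. Transaminases pass the amino group to a keto acid, mostly to form glutamate, and glutamate and glutamine then release ammonia for the urea cycle. Several of these enzymes are held mainly by hepatocytes around the portal vein, and many are induced by glucocorticoids, glucagon and protein intake. Branched-chain amino acids are the exception among them, since their first transamination takes place mostly outside the liver.

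Signals are log2 values of the scanner's processed intensity relative to the 75th percentile of each array, and a difference is between group means of 3 arrays, given ± its SE. A gene was said to rise or fall where limma's adjusted p was under 0.05. Scanner signal at the 75th percentile lay between 209.7 and 264.7, and no spot was saturated. Chow arrays sat on slide 1, HFD arrays and HFD+APS 1 on slide 2, and HFD+APS 2 and 3 on slide 3. Chow shares no slide with the other groups, so diet and slide cannot be told apart in HFD or HFD+APS against chow. Between 61.5% and 68.4% of spots were well above background on slide 1, between 50.4% and 54.1% on slide 2 and between 63.5% and 64.5% on slide 3. Of 10 hepatocyte markers 8 were measured, and their summed level spanned 11.45 to 11.65 in chow, 11.41 to 11.59 in HFD and 11.26 to 11.67 in HFD+APS (log2). Among them Cyp3a11, a drug-metabolising cytochrome, fell in HFD against chow by 2.03 on the log2 scale (limma adjusted p = 0.0238). It rose in HFD+APS over HFD by 2.28 ± 0.41 (limma adjusted p = 0.0394). No other hepatocyte marker passed. Between HFD and chow 2 of the 8 differences were positive and 6 negative (median -0.16). Between HFD+APS and HFD 3 were positive and 5 negative (median -0.20), and between HFD+APS and chow likewise 3 and 5 (median -0.34).

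Markers of other cell types also differed between groups. All 11 Kupffer cell and macrophage markers were measured, 10 had positive differences between HFD and chow (median 1.05, none passing in limma and 8 higher at an unadjusted p under 0.05), and their summed level spanned 5.47 to 6.19 in chow, 6.29 to 6.87 in HFD and 5.93 to 7.01 in HFD+APS. Of 9 markers of monocyte-derived macrophages 7 were measured, and Ly6c2 and Trem2 rose in HFD over chow by 1.89 ± 0.26 and 2.33 ± 0.50 (limma adjusted p = 0.00944 and 0.0278), with a summed level of 4.64 to 5.68 in chow, 6.10 to 6.36 in HFD and 5.33 to 6.07 in HFD+APS. In this list 6 differences of HFD from chow were positive and 1, Cd9 at -0.71 ± 0.26, was negative (limma adjusted p = 0.113). Of 9 stellate cell and fibroblast markers the collagens Col1a1 and Col3a1 rose by 2.08 ± 0.45 and 1.79 ± 0.30 (adjusted p = 0.0294 and 0.0151), and the summed level was 6.16 to 7.0 in chow, 6.93 to 7.23 in HFD and 6.83 to 7.07 in HFD+APS. Of 9 endothelial markers Clec4g and Oit3 rose by 0.80 ± 0.20 and 0.92 ± 0.24 (adjusted p = 0.0395 and 0.0461), and the summed level was 5.03 to 5.68 in chow, 5.92 to 6.15 in HFD and 6.02 to 6.21 in HFD+APS. Of 11 lymphocyte markers 10 were measured, with 4 positive and 6 negative differences between HFD and chow. Cd4 passed as lower in HFD (limma adjusted p = 0.0404), with means of -3.63 in HFD and -2.91 in chow. Both levels are dim, so no fold is given. None of the macrophage, stellate, endothelial or lymphocyte markers passed between HFD+APS and HFD in limma, where at an unadjusted p under 0.05 the monocyte-derived macrophage list had 3 lower, the stellate list 3 lower and the lymphocyte list 1 lower. Of 6 adipocyte markers 2 were measured, with a summed level of 3.38 to 3.86 in chow, 3.69 to 5.65 in HFD and 1.59 to 2.0 in HFD+APS, while Adipoq, Plin1, Retn and Lep did not pass the filter. Of the measured pair Plin4, a lipid droplet protein, fell in HFD+APS against HFD by 2.36 on the log2 scale (limma adjusted p = 0.0214). Their part in the results was not tested.

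HFD 3 stood apart from the other HFD arrays. The summed level of 14 acute phase genes was 12.98 on HFD 3 against 11.86 and 11.46 on the other HFD arrays, 11.42 to 12.38 on the chow arrays and 11.29 to 12.26 on the HFD+APS arrays. Of 7 neutrophil markers 3 were measured, with a summed level of 5.63 on HFD 3 and at most 3.13 on any other array, while Ly6g, Camp, Ngp and Mmp8 did not pass the filter. Among the chow arrays chow 2 differed from the others, with an acute phase level of 12.38 against 11.43 and 11.42. Its Kupffer cell and macrophage, stellate and endothelial levels (5.47, 6.16 and 5.03) were the lowest of all arrays. It held the highest value for 19.8% of all genes and the lowest for 14.7%. The part of HFD 3 and of chow 2 in the results was not tested beyond fits that leave them out.

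In HFD livers 5 of the 38 genes were lower than in chow (Agxt, Gls2, Amdhd1, Hal and Tat) and 1 was higher (Agxt2). Among all genes tested 6.37% fell and 4.55% rose in the same comparison. Without adjustment 7 of the 38 were higher and 8 lower at p under 0.05, against 13.2% and 18.2% of all genes. The 8 include Acmsd, which was not well above background on any HFD array. The median difference of the 38 genes was 0.04, with 20 positive and 18 negative, and that of all genes was -0.04. In bulk liver RNA, fewer cells of a type and less RNA per cell cannot be told apart. A random slide block cannot take slide out of this comparison, since chow and HFD share no slide. With it, Agxt and Gls2 passed (adjusted p = 0.032 and 0.0402 in limma). Amdhd1, Hal, Tat and Agxt2 did not (adjusted p = 0.0708, 0.075, 0.0774 and 0.0896). With no filter on dim probes the same 4 did not pass either (adjusted p from 0.0723 to 0.0901).

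In HFD+APS livers 2 of the 38 genes were higher than in HFD (Agxt and Ivd), where 0.476% of all genes rose, and none fell in the limma fit, where 1.03% of all genes fell. At an unadjusted p under 0.05 the counts were 15 higher and 2 lower, against 8.38% and 9.48% of all genes. The 15 include Acmsd. The median difference was 0.20 (0.17 with Acmsd, which has only a bound here, set at that bound), with 31 positive and 7 negative, and over all genes it was 0.00, with 8830 of 17633 positive. Without HFD 3 the median was 0.14 with 23 positive, and with slide as a fixed block, which rests on HFD+APS 1 against the HFD arrays of its slide, it was 0.22 with 24 positive.

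Against chow, HFD+APS livers had 1 of the 38 genes higher (Hgd), where 0.958% of all genes rose, and 0 lower in the limma fit, where 2.5% of all genes fell. At an unadjusted p under 0.05 there were 14 higher and 0 lower, against 9.87% and 15.3% of all genes. The 3 comparisons share their groups, so their values are given side by side and not as independent evidence.

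**Figure D1:**
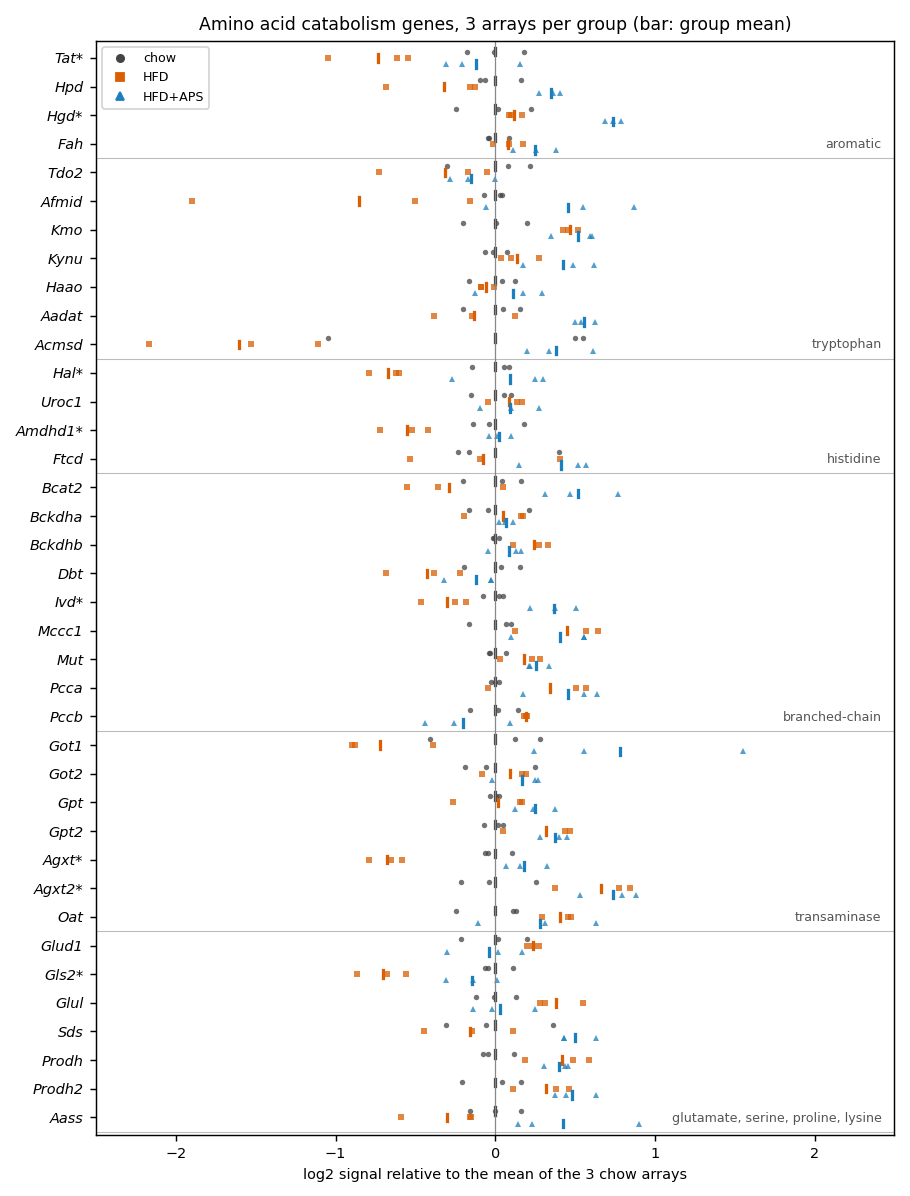
Each of the 38 genes is drawn on its own line, with the log2 signal of every array relative to the mean of the 3 chow arrays on the x axis (circles chow, squares HFD, triangles HFD+APS, vertical bars group means; an asterisk marks the 8 genes that passed the threshold in at least 1 comparison). HFD squares lie left of chow for Tat, Hal, Amdhd1, Agxt and Gls2, while HFD+APS has the highest group mean for 27 of the 38 genes.

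Aromatic amino acids lose their amino group through Tat, tyrosine aminotransferase, after which Hpd, Hgd and Fah open and split the ring. Tat fell in HFD livers and Hgd was higher in HFD+APS than in chow livers. Differences of Hpd and Fah passed in no comparison.

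The Tat signal was 6.63, 6.46 and 6.82 on the chow arrays, 6.02, 5.59 and 6.09 on the HFD arrays and 6.79, 6.43 and 6.33 on the HFD+APS arrays. All 3 HFD arrays were below every other array. The HFD mean was lower than chow by 1.66-fold (log2 difference -0.73 ± 0.18, limma adjusted p = 0.0418), and HFD+APS exceeded HFD by 0.62 ± 0.18 (adjusted p = 0.143). The fall passed in 1 of 9 limma fits that leave out 1 array, the one without HFD+APS 1, and the adjusted p reached 0.115 in the others. The probe lies at chr8:112523207-112523266 on the plus strand (mm9, the build of the array annotation).

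Hgd, homogentisate dioxygenase, had 4.87, 4.40 and 4.66 on the chow arrays, 4.74, 4.81 and 4.73 on the HFD arrays and 5.43, 5.38 and 5.33 on the HFD+APS arrays. The HFD+APS arrays lay above all 6 others, and HFD and chow overlapped. HFD+APS exceeded chow by 0.73 ± 0.13, or 1.66-fold (limma adjusted p = 0.0309), and HFD by 0.62 ± 0.13 (adjusted p = 0.0608), which passed without chow 2 (adjusted p = 0.0449). The rise over chow was lost when chow 2, chow 3, HFD 2, HFD+APS 2 or HFD+APS 3 was left out, the adjusted p reaching 0.0985. With slide as a random block, which cannot separate slide from diet here, it was 0.73 ± 0.14 (limma adjusted p = 0.0634). Its probe lies at chr16:37621972-37622031 on the plus strand (mm9).

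Hpd, hydroxyphenylpyruvate dioxygenase, read 7.35, 7.09 and 7.12 in chow, 7.06, 7.03 and 6.50 in HFD and 7.59, 7.55 and 7.46 in HFD+APS. HFD 3 was the lowest array and the HFD+APS arrays were the highest. The difference of HFD+APS from HFD, 0.66 ± 0.16, had an adjusted p of 0.089 in limma, and that of HFD from chow, -0.32 ± 0.16, had 0.213. Fah, fumarylacetoacetate hydrolase, differed by 0.08 ± 0.11 between HFD and chow and by 0.17 ± 0.11 between HFD+APS and HFD, with adjusted p of 0.656 and 0.432.

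Of 6 further genes of phenylalanine and tyrosine metabolism, none passed in any of the 3 comparisons in limma. At an unadjusted p under 0.05, 1 was higher in HFD than in chow, 2 were higher and 1 was lower in HFD+APS than in HFD, and 2 were higher in HFD+APS than in chow.

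Tryptophan is opened by Tdo2, the liver's tryptophan dioxygenase, and passed on by Afmid, Kmo, Kynu and Haao towards NAD, while Acmsd diverts an intermediate away from NAD and Aadat transaminates kynurenine. None of the 7 genes passed in any comparison in limma. At an unadjusted p under 0.05, 1 was higher and 1 lower in HFD than in chow. The lower gene was Acmsd, which was not well above background on any HFD array, so its fall has no measured size. In HFD+APS, 3 (Acmsd among them) were higher than in HFD, and 3 were higher than in chow. Apart from Acmsd, which has only a bound there, the differences of HFD+APS from HFD lay between 0.05 and 1.31.

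The Acmsd probe was dim and was well above background on chow 1, chow 3 and the HFD+APS arrays only. Its signal was -3.08, -4.63 and -3.03 in chow, -5.11, -4.69 and -5.75 in HFD and -2.97, -3.38 and -3.24 in HFD+APS. The values on chow 2 and the HFD arrays, not well above background, have no order among themselves, and the probe passed the filter through the arrays where it was bright. HFD+APS was at least 1.12-fold above HFD, a bound set by the dimmest signal called above background on the HFD arrays, with measured means of -3.20 and -5.19 (adjusted p = 0.0694 in limma). Chow and HFD had measured means of -3.58 and -5.19 (adjusted p = 0.0528), and no fold is given because this bound does not exceed 1.

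Kmo, kynurenine monooxygenase, was 0.46 ± 0.13 higher in HFD than in chow by its group means, with an adjusted p of 0.0551 in limma, and its groups did not overlap. Without HFD+APS 1 it passed against chow in HFD (0.46 ± 0.12, adjusted p = 0.0413) and in HFD+APS (0.60 ± 0.13, adjusted p = 0.0369). Aadat averaged 4.62 ± 0.18 in chow, 4.49 ± 0.25 in HFD and 5.18 ± 0.07 in HFD+APS (SD, n = 3). Its difference of HFD+APS from HFD was 0.68 ± 0.15 (limma adjusted p = 0.0697), and the HFD+APS arrays lay above all others.

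Afmid, which hydrolyses formylkynurenine, had its low HFD mean from 1 array. Its signal was 2.38 and 2.72 on HFD 1 and HFD 2 but 0.98 on HFD 3, against 2.81 to 2.92 in chow and 2.82 to 3.75 in HFD+APS. The difference of HFD from chow was -0.85 ± 0.43 (adjusted p = 0.21 in limma), and the second Afmid probe gave -0.04.

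Tdo2 differed from chow by -0.32 in HFD on both of its probes (adjusted p = 0.332 in limma), Kynu by 0.14 (adjusted p = 0.523) and Haao by -0.06 (adjusted p = 0.792). The probes of Kynu disagreed in direction, the second giving -0.54. Of 11 further tryptophan and NAD genes 9 were measured, and 1 rose in HFD over chow: Ido2, a second tryptophan-opening dioxygenase, by 0.72 ± 0.16 (limma adjusted p = 0.0324). In the other comparisons none of the 9 passed, and at an unadjusted p under 0.05 there were 0 between HFD+APS and HFD and 3 higher between HFD+APS and chow.

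Histidine breakdown runs in order through Hal, histidine ammonia lyase, Uroc1, urocanase, Amdhd1, imidazolonepropionase, and Ftcd, which hands the last carbon to folate. Hal, which encodes the entry step, and Amdhd1 fell in HFD livers. Uroc1 and Ftcd, which encode the other steps, had small differences that did not pass.

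Hal read 6.30, 6.27 and 6.07 in chow, 5.59, 5.61 and 5.42 in HFD and 6.51, 6.46 and 5.94 in HFD+APS. Every HFD array was below every chow and HFD+APS array, and HFD+APS overlapped with chow. HFD was 1.6-fold below chow (log2 difference -0.67 ± 0.16, limma adjusted p = 0.0388), and HFD+APS was above HFD by 0.77 ± 0.16 (adjusted p = 0.0655), which passed without HFD+APS 3 (0.95 ± 0.13, adjusted p = 0.0486). The fall was lost when any chow or HFD array was left out, with adjusted p up to 0.114. The probe lies at chr10:92979135-92979194 on the plus strand (mm9).

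For Amdhd1 the values were 4.66, 4.98 and 4.76 in chow, 4.38, 4.28 and 4.08 in HFD and 4.81, 4.90 and 4.76 in HFD+APS. Again the HFD arrays were the lowest, while chow and HFD+APS interleaved. HFD was 1.47-fold below chow (log2 difference -0.55 ± 0.12, limma adjusted p = 0.0321), and the second probe gave -0.80. HFD+APS was above HFD by 0.58 ± 0.12 (adjusted p = 0.0659). The fall was lost when chow 2, chow 3, HFD 2, HFD 3 or HFD+APS 3 was left out, the adjusted p reaching 0.0962. The brighter probe lies at chr10:92986454-92986513 on the minus strand (mm9), beside Hal: the RefSeq annotation (GRCm38) places 0 other genes between the pair.

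Ftcd spanned 6.13 to 6.76 in chow, 5.83 to 6.77 in HFD and 6.51 to 6.93 in HFD+APS, the widest overlap among the histidine genes. Its difference of HFD from chow was -0.07 ± 0.26 (adjusted p = 0.882 in limma), and that of HFD+APS from HFD was 0.48 ± 0.26 (adjusted p = 0.378). Uroc1 differed by 0.09 ± 0.13 and 0.01 ± 0.13 in the same comparisons (adjusted p = 0.685 and 0.985). Of 6 further histamine and folate genes 1 rose in HFD over chow: Hnmt, which methylates histamine, by 1.34 ± 0.21 (limma adjusted p = 0.012). None passed in the other comparisons, where at an unadjusted p under 0.05 there were 1 higher and 2 lower in HFD+APS than in HFD, and 4 higher in HFD+APS than in chow.

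**Figure D2:**
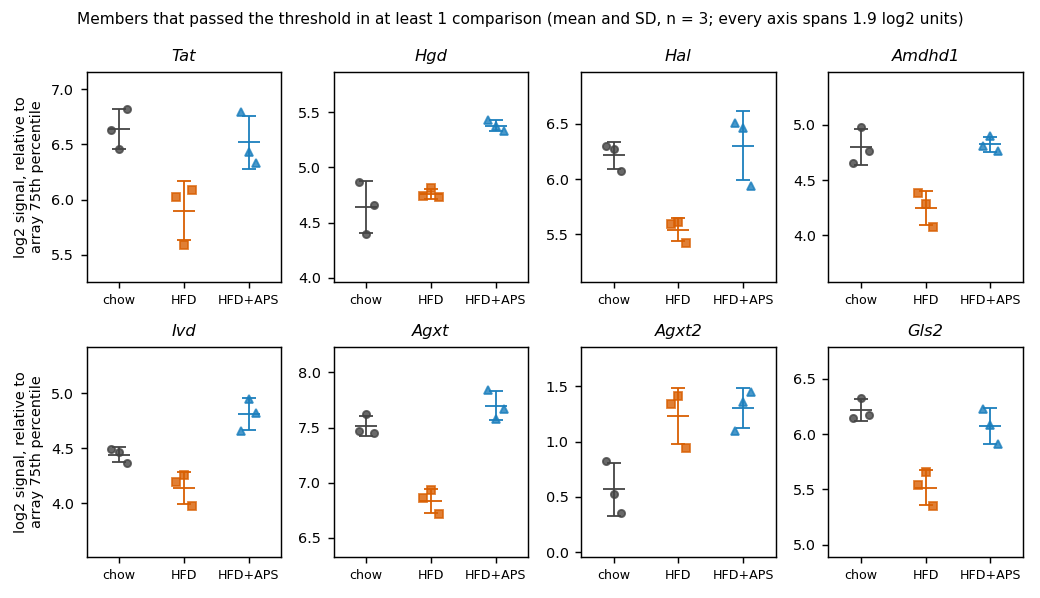
Log2 signal relative to the 75th percentile of each array (y axis) for the 8 genes that passed the threshold in at least 1 comparison, by group on the x axis; points are arrays, lines are mean and SD of 3. Tat, Hal, Amdhd1, Agxt and Gls2 are lowest in HFD, Ivd and Hgd are highest in HFD+APS, and Agxt2 is lowest in chow.

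Branched-chain amino acids pass through Bcat2, a transaminase, the Bckdha, Bckdhb and Dbt subunits of the branched-chain keto acid dehydrogenase, and then through Ivd and Mccc1 for leucine and Pcca, Pccb and Mut (Mmut in RefSeq) for propionyl-CoA. None of the 9 genes passed between HFD and chow in limma, where 2 were higher and 2 lower at an unadjusted p under 0.05. Ivd rose in HFD+APS over HFD. The median difference was 0.18 between HFD and chow and 0.07 between HFD+APS and HFD.

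Ivd, isovaleryl-CoA dehydrogenase, read 4.49, 4.47 and 4.37 in chow, 4.19, 4.26 and 3.98 in HFD and 4.66, 4.95 and 4.82 in HFD+APS. The groups were fully separated, with HFD lowest and HFD+APS highest. HFD+APS exceeded HFD by 0.66 ± 0.12, or 1.59-fold (limma adjusted p = 0.039), and the second probe gave 0.76. The rise passed in 1 of 9 fits that leave out 1 array, the one without HFD+APS 1, and the adjusted p reached 0.129 in the others. Within slide 2, by the slide block, the difference was 0.51 ± 0.15 (adjusted p = 0.188), and with slide as a random block it was 0.64 ± 0.12 (adjusted p = 0.06). The probe lies at chr2:118706998-118707057 on the plus strand (mm9).

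Bcat2 read -2.19, -2.07 and -2.43 in chow, -2.59, -2.18 and -2.78 in HFD and -1.76, -1.46 and -1.92 in HFD+APS. HFD+APS arrays were the highest, and chow and HFD overlapped. The difference of HFD+APS from HFD was 0.80 ± 0.19 (adjusted p = 0.0815 in limma), and its other probes, well above background on 7 and 6 of the 9 arrays, gave 0.26 and 1.65. Mccc1, a methylcrotonyl-CoA carboxylase subunit, read 3.82, 3.59 and 3.85 in chow, 4.32, 4.40 and 3.88 in HFD and 3.85, 4.31 and 4.31 in HFD+APS. All HFD arrays were above chow, HFD 3 only barely, and the difference of 0.45 ± 0.18 had an adjusted p of 0.141 in limma.

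The 3 dehydrogenase subunits had differences of either sign. Between HFD and chow, Bckdha differed by 0.05 ± 0.14, Bckdhb by 0.24 ± 0.10 and Dbt by -0.43 ± 0.16, with limma adjusted p of 0.844, 0.154 and 0.112. Pcca, Pccb and Mut had differences of 0.34, 0.19 and 0.18, none of which passed. Between HFD+APS and HFD these 6 genes differed by at most 0.31 upwards (Dbt) and the most negative difference, -0.39 ± 0.15 for Pccb, did not pass (adjusted p = 0.22). Of 18 further branched-chain genes 17 were measured and none passed in any comparison in limma. At an unadjusted p under 0.05, 3 were higher in HFD than in chow, 2 in HFD+APS than in HFD and 6 in HFD+APS than in chow, and 0 were lower in each.

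Among the transaminases the alanine-glyoxylate pair moved in opposite directions in HFD livers: Agxt, which detoxifies glyoxylate, fell, and Agxt2, a mitochondrial enzyme, rose. Agxt rose in HFD+APS over HFD. Got1, Got2, Gpt, Gpt2 and Oat did not pass in any comparison.

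Agxt read 7.47, 7.62 and 7.45 in chow, 6.86, 6.93 and 6.72 in HFD and 7.84, 7.58 and 7.67 in HFD+APS. The HFD arrays were clearly below all others, and HFD+APS overlapped with chow. HFD was 1.6-fold below chow (log2 difference -0.68 ± 0.11, limma adjusted p = 0.014), and HFD+APS was 1.82-fold above HFD (0.86 ± 0.11, adjusted p = 0.0176). Within slide 2 the latter was 1.01 ± 0.14 (adjusted p = 0.0309). HFD+APS differed from chow by 0.18 ± 0.11 (adjusted p = 0.357). The fall was lost without chow 2 (adjusted p = 0.0525), and the rise was lost without HFD 1 and without HFD+APS 3, where the adjusted p reached 0.0659. The probe lies at chr1:95041901-95041959 on the plus strand (mm9).

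Agxt2 read 0.82, 0.53 and 0.35 in chow, 1.34, 1.41 and 0.94 in HFD and 1.1, 1.36 and 1.45 in HFD+APS. The chow arrays were below all others, and the high-fat groups overlapped. HFD was 1.59-fold above chow (log2 difference 0.67 ± 0.18, limma adjusted p = 0.0486), and HFD+APS differed from chow by 0.74 ± 0.18 (adjusted p = 0.0569), which passed without HFD 3 or without HFD+APS 1 (adjusted p = 0.0491 and 0.0388). The rise passed in 2 of 9 fits that leave out 1 array, those without HFD 3 and without HFD+APS 1, and the adjusted p reached 0.131 in the others. It missed the threshold with quantile normalization (adjusted p = 0.0501), the authors' deposited table (0.0541), no filter on dim probes (0.0901), slide as a random block (0.0896) and the replicate block (0.0766), and passed in 6 of 19 alternatives in all.

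The probe that read Agxt2 is shown because the opposite directions of the pair rest on single probes. The 60 bases, in lower case as no base is marked, come from the array annotation (mm9), where they cover 5267 bases of genome and so cross an intron. The longest run of bases shared with the Agxt probe was 7, and the longest between probes of any different members was 10.
Agxt2 probe, chr15:10323555-10328821, plus strand: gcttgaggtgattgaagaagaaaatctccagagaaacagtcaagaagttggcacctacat

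Got1, the cytosolic aspartate transaminase, had the largest difference between HFD+APS and HFD among the transaminases. It read 5.0, 4.31 and 4.84 in chow, 3.82, 3.84 and 4.33 in HFD and 6.27, 4.96 and 5.27 in HFD+APS. HFD+APS 1 was far above the rest, and HFD 3 overlapped with chow 2. The difference of HFD+APS from HFD, 1.5 ± 0.34 or 2.83-fold, had an adjusted p of 0.0748 in limma, and within slide 2, which rests on HFD+APS 1, it was 2.27 ± 0.32 (adjusted p = 0.0278). The array annotation lists only 13 bases of genome for this probe of 60 bases.

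Got2, the mitochondrial form, differed by 0.09 ± 0.15 between HFD and chow and by 0.07 ± 0.15 between HFD+APS and HFD. For the alanine transaminases the differences of HFD from chow were 0.02 ± 0.14 for Gpt and 0.32 ± 0.13 for Gpt2, with limma adjusted p of 0.931 and 0.137. Oat, ornithine aminotransferase, differed by 0.41 ± 0.20 (adjusted p = 0.195), with all HFD arrays above chow.

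Glutamine and glutamate are handled by Gls2, the liver glutaminase, Glud1, glutamate dehydrogenase, and Glul, glutamine synthetase. Serine is deaminated by Sds, proline and hydroxyproline are oxidised by Prodh and Prodh2, and lysine breakdown starts with Aass. Of these 7 genes Gls2 fell in HFD livers and no other passed in any comparison.

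Gls2 read 6.15, 6.33 and 6.17 in chow, 5.54, 5.66 and 5.35 in HFD and 6.23, 6.08 and 5.91 in HFD+APS. HFD arrays were below all others, and HFD+APS overlapped with chow. HFD was 1.63-fold below chow (log2 difference -0.70 ± 0.13, limma adjusted p = 0.0182), and HFD+APS was above HFD by 0.56 ± 0.13 (adjusted p = 0.076). The fall was lost without chow 2, chow 3 or HFD 3, with adjusted p up to 0.0663. The probe lies at chr10:127646830-127646889 on the plus strand (mm9).

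Glul and Glud1 had positive differences between HFD and chow, 0.38 ± 0.14 and 0.24 ± 0.15, and negative ones between HFD+APS and HFD, -0.35 ± 0.14 and -0.28 ± 0.15. None of these passed (limma adjusted p from 0.107 to 0.373). Another Glul probe gave 0.08 between HFD and chow, and the remaining one gave 0.39.

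Aass, aminoadipate semialdehyde synthase, read 7.18, 6.86 and 7.02 in chow, 6.87, 6.86 and 6.43 in HFD and 7.92, 7.16 and 7.25 in HFD+APS. HFD+APS 1 was the highest array by a wide margin and HFD 3 the lowest. The difference of HFD+APS from HFD was 0.72 ± 0.22 (limma adjusted p = 0.149). Sds differed by 0.66 ± 0.20 in the same comparison (adjusted p = 0.149). Prodh and Prodh2 exceeded chow by 0.42 ± 0.13 and 0.32 ± 0.14 in HFD (adjusted p = 0.0708 and 0.171), and the 2 Prodh2 probes share 51 bases, so they are not independent.

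Of 29 further genes of transaminase, glycine, serine, proline and lysine metabolism 25 were measured. In HFD against chow 3 rose (Ddo, Grhpr and Gcsh, by 0.90, 0.46 and 0.47) and 1 fell. The gene that fell was Sdsl, a relative of serine dehydratase, at -1.24 ± 0.16 (limma adjusted p = 0.0073), and it rose in HFD+APS over HFD by 0.98 ± 0.16 (adjusted p = 0.0311). No other gene of the list passed between HFD+APS and HFD, and 0 passed between HFD+APS and chow, where 10 were higher and 2 lower at an unadjusted p under 0.05.

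Of 18 amino acid carriers 17 were measured. Slc7a2, which takes up arginine and lysine, fell in HFD against chow by 0.63 on the log2 scale (adjusted p = 0.0331 in limma) and was higher in HFD+APS than in HFD by 1.17 ± 0.14 (adjusted p = 0.0137). Slc38a2, a carrier of small neutral amino acids, was lower than chow in HFD (-0.49 ± 0.12, adjusted p = 0.0434) and in HFD+APS (-0.57 ± 0.12, adjusted p = 0.0485). Slc36a1 was higher in HFD than in chow by 0.94 ± 0.23 (adjusted p = 0.0402), and Slc6a12, which carries betaine, was higher in HFD+APS than in chow by 0.58 ± 0.11 (adjusted p = 0.0366).

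Promoter sequences are shown for the genes that fell in HFD livers, so that the 250 bases before their starts can be read side by side. RefSeq windows (GRCm38.p6) were found for 4 of the 5, printed 5′ to 3′ on the strand of the gene, and capitals mark matches on either strand to any of 5 motifs. These were the TATA box TATAAA, the CCAAT box CCAAT, the glucocorticoid receptor hexamer TGTTCT, the cyclic AMP response element TGACGTCA and the HNF4 core CAAAGTCCA.
Tat promoter, chr8:109990186-109990435, plus strand: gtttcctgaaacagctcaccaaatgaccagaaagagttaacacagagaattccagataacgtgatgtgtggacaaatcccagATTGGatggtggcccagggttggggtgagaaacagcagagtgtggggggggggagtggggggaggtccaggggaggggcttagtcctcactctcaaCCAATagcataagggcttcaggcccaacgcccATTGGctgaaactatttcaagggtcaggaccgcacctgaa
Hal promoter, chr10:93488518-93488767, plus strand: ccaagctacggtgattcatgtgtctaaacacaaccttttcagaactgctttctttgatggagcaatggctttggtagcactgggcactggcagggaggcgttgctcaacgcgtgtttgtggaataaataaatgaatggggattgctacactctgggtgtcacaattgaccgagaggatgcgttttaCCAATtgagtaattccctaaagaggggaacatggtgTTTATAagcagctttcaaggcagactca
Amdhd1 promoter, chr10:93540034-93540283, minus strand: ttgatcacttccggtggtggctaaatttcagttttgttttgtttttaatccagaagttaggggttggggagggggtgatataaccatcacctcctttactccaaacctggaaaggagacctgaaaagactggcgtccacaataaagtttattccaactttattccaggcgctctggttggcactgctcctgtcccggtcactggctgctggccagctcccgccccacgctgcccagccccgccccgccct
Agxt promoter, chr1:93134990-93135239, plus strand: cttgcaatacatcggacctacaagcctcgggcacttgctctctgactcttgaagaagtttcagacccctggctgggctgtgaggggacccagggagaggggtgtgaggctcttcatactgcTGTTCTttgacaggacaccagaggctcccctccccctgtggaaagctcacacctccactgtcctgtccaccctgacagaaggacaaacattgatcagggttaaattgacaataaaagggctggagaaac

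Tat held 3 CCAAT matches and Hal 1, a motif found in 33.8% of 32851 windows of the same length. Hal also held 1 TATAAA match, 28 bases before its start and on the other strand, against 12.4% of windows. Agxt held 1 TGTTCT match, found in 16.1% of windows, and Amdhd1 held none of the 5. The cyclic AMP element and the HNF4 core, found in 1.55% and 0.384% of windows, matched none of the 4. No motif was shared by more than 2 of these 4 genes.

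Several of the genes that fell are known for expression around the portal vein, so lists of zonal genes were read beside them. Whether zonation had a part in the falls was not tested. Of 12 periportal genes 11 were measured. In HFD against chow Asl, Cdh1 and Cyp2f2 fell by 1.09, 1.40 and 0.76 on the log2 scale and Apoc2 rose by 0.83 ± 0.10 (limma adjusted p from 0.0052 to 0.0455). In HFD+APS against HFD Cps1, Asl and Arg1, all of the urea cycle, rose by 1.11 ± 0.19, 1.22 ± 0.21 and 0.65 ± 0.12 (adjusted p = 0.0346, 0.0349 and 0.0499). For Arg1, 1 HFD+APS value was missing. Of the 11 differences 2 were positive and 9 negative between HFD and chow (median -0.20). Between HFD+APS and HFD 7 were positive and 4 negative (median 0.50, lowest -0.47). At an unadjusted p under 0.05 in limma, 7 were higher and 1 lower there.

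Of 12 pericentral genes 4 rose in HFD over chow, among them Gulo, Rgn and Rhbg, by 0.64 ± 0.12, 0.54 ± 0.11 and 0.88 ± 0.21 (limma adjusted p = 0.0175, 0.0235 and 0.0389). The list as a whole was split, with 6 positive and 6 negative differences (median -0.02). At an unadjusted p under 0.05 it had 4 higher and 3 lower. Rhbg fell in HFD+APS against HFD by 1.2 on the log2 scale (adjusted p = 0.039), and Gulo was higher in HFD+APS than in chow by 0.70 ± 0.12 (adjusted p = 0.0262). Of 18 genes of the glucocorticoid, glucagon and fasting response 16 were measured and 0 passed in any comparison in limma. At an unadjusted p under 0.05 there were 1 higher and 1 lower in HFD than in chow, 0 between HFD+APS and HFD, and 1 higher between HFD+APS and chow.

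HFD 3 held the lowest of the 9 values for 17 of the 38 genes, against 18.5% of all genes. These 17 included Agxt, Gls2, Amdhd1, Hal and Ivd among the genes that passed, and Hpd, Tdo2, Afmid and Aadat among those that did not. The count also holds Acmsd, which was not well above background on this array. Tat was lowest on HFD 2 instead. The acute phase and neutrophil levels given above were highest on this array, and their part in these low values was not tested. Without HFD 3 the differences of HFD from chow were -0.62 for Agxt, -0.62 for Gls2, -0.47 for Amdhd1, -0.62 for Hal and -0.83 for Tat, and of these Agxt passed (limma adjusted p = 0.0418).

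**Figure D3:**
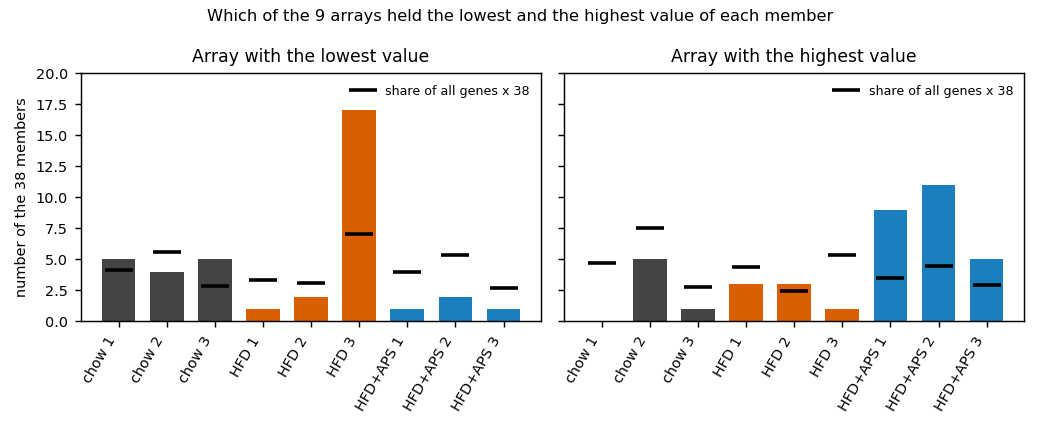
Bars count, for each of the 9 arrays on the x axis, how many of the 38 genes had their lowest (left) or highest (right) value there; black dashes give the share of all genes scaled to 38. HFD 3 holds 17 lowest values, and the 3 HFD+APS arrays hold 9, 11 and 5 of the highest.

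At the other end, the HFD+APS arrays held the highest value for 25 of the 38 genes, 9, 11 and 5 on HFD+APS 1, 2 and 3, against 28.7% of all genes. By group means HFD+APS was highest for 27 genes, HFD for 7 and chow for 4, where the shares over all genes were 27.2%, 31.6% and 41.2%. The HFD+APS mean lay between chow and HFD for 9 of the 38 genes (23.7%, against 41.7% of all genes). These counts describe 9 arrays, and members of 1 pathway are not independent of each other.

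By pathway, the median of centred values on the HFD+APS arrays was 0.42, 0.31 and 0.20 for the aromatic genes, and it was negative on all HFD arrays. For tryptophan genes HFD 3 was at -0.52, against -0.15 and -0.03 on the other HFD arrays. For histidine genes HFD 3 was at -0.57, against -0.22 and -0.12. Branched-chain, transaminase and glutamate-related genes were positive on HFD 1, HFD 2 and the HFD+APS arrays and negative on HFD 3. The spread among arrays was like that of other genes, with a median SD of 0.16, 0.20 and 0.17 over the 38 genes in chow, HFD and HFD+APS and 0.17, 0.18 and 0.19 over all genes.

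**Figure D4:**
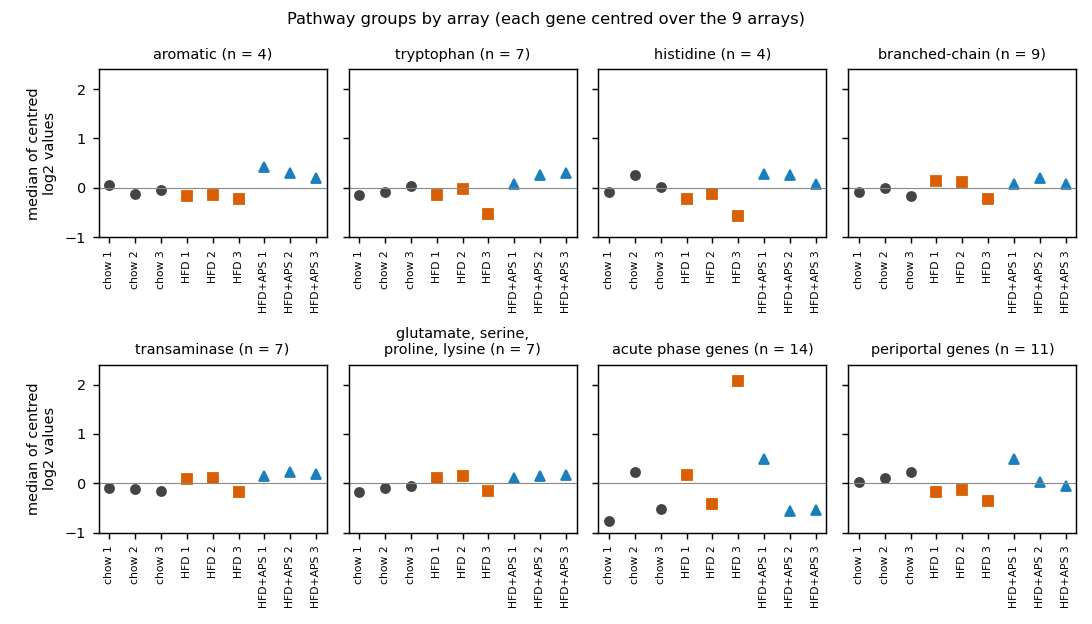
Each panel gives, for the 9 arrays on the x axis, the median over a group of genes of log2 values centred per gene over all arrays (y axis), for the 6 pathway groups, 14 acute phase genes and 11 periportal genes. Aromatic genes separate HFD+APS from HFD, HFD 3 is low in tryptophan and histidine genes, and the same array is at 2.08 in the acute phase panel.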

How the data were processed

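Total RNA of 9 livers was hybridised to 9 Agilent 1-colour (Cy3) arrays. Per the file headers, the authors' scanner software (Feature Extraction 10.7.1.1) gave a processed intensity per spot, background-subtracted, with no scaling across arrays. A deposited series table gives the authors' log2 values, used as an alternative; its normalisation is not given in the sources used here, and the submitters' processing notes name limma with no role.

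With R 4.3.3, spots called as outliers were dropped (5 values missing, 0 in the members), and probes well above background on at least 3 of 9 arrays were kept, the brightest per gene. limma 3.58.1 fitted the 9 arrays together (6 residual and 2.2 prior degrees of freedom, Benjamini-Hochberg over 17633 genes). Scripts were tested on simulated data. The number of arrays limits precision. Exon or UTR positions of probes were not determined, since no mm9 genome was used here.

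The members and lists were chosen with earlier results of these data known. Named with array values were members that passed or had the largest difference of their pathway group (Afmid was added after its values were seen), and list genes only if they passed; 1 list gene that passed is not reported here by name. Replicate numbers do not pair the livers: deviations of same-numbered arrays correlated from -0.17 to 0.16.

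Alternatives were quantile normalization, normexp (offset 50), the deposited table, filters on dim probes, the mean of probes, leaving out arrays, replicate or slide blocks and array weights.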

Additional observations from a re-analysis of the deposited data

How the results depend on the processing

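No called difference changed sign under any alternative run, while 27 of the 114 differences, none of them called, did under at least 1. Counts of members that passed varied, and the causes were not tested. HFD against chow had 1 higher and 5 lower. The count of higher members was 0 with quantile normalization, no filter on dim probes or slide as a random block. It was 3 with normexp, 2 with probes above background on all 9 arrays, 4 with array weights and 0 to 2 without 1 array. Over all genes the count was 802 in the main fit, 869 with quantile normalization, 342 of 27343 with no filter and 289 with the random block. It was 751 with normexp, 938 of 13231 with the all-array filter, 1267 with array weights and 171 to 1060 without 1 array. The count of lower members was 2 with no filter, 2 with the random slide block and 1 to 5 without 1 array. Over all genes it went from 1124 in the main fit to 456, 395 and 194 to 1648 in the same fits. HFD+APS against HFD had 2 higher. That count was 8 with normexp, 1 with no filter, 5 with the all-array filter and 1 with the mean of probes. It was 1 with the random slide block, 9 with array weights and 0 to 3 without 1 array. Over all genes the count was 84 in the main fit, and 98, 22, 86 and 87 in the first fits named. It was 54 with the random slide block, 464 with array weights and 14 to 155 without 1 array. HFD+APS against chow had 1 higher, which became 4 with normexp, 0 with no filter and 3 with the all-array filter. It became 0 with the random slide block, 11 with array weights and 0 to 3 without 1 array. Over all genes the count was 169 in the main fit, 263 with normexp, 34 with no filter and 345 with the all-array filter. It was 27 with the random slide block, 1168 with array weights and 1 to 411 without 1 array. Lower members stayed at 0 in both HFD+APS comparisons under all of these. Over all genes 32 to 799 were lower in HFD+APS than in HFD, and 18 to 1983 were lower than in chow. Leaving out HFD 3 and chow 2 together, chosen after seeing the data, gave 0 higher and 1 lower for HFD against chow. It gave 1 higher for HFD+APS against HFD and 0 for HFD+APS against chow. Over all genes the counts were 54 higher and 52 lower, 15 higher, and 2 higher in the same order.

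With the replicate number as a replicate block (a paired fit), 0 members were higher and 5 lower in HFD than in chow. In HFD+APS 0 were higher than in HFD or in chow. Over all genes 534 were higher and 786 lower in HFD than in chow. In HFD+APS 26 of all genes were higher than in HFD and 53 higher than in chow. Single calls lost with no filter were Agxt2, Amdhd1, Hal, Tat, Ivd and Hgd (adjusted p in limma from 0.0652 to 0.0956), and the deposited table lost Agxt2 (0.0541) and gained Kmo. The slide consensus correlation was 0.11, and the block cannot separate slide from diet where chow is compared. Signal over background limits Acmsd. Each called difference missed the threshold in at least 1 fit that leaves out 1 array, where the counts over all genes also changed. The Ivd rise in HFD+APS over HFD stayed at 0.66 ± 0.12 when any chow array, outside this comparison, was left out. It still missed the threshold there (limma adjusted p from 0.0599 to 0.0761).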
